A study of Mus musculus with 9 samples.

Results

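The genes described here are 36 mouse genes of protein folding and quality control in the endoplasmic reticulum (ER): stress sensors, chaperones, disulfide enzymes, secreted stress proteins, subunits of the protein channel and components of ER-associated degradation. They are named as known members of these families, by a rule that uses no measured value, but the list was drawn up with earlier results of these data known, as were the further gene lists. All 36 were listed among the 21870 genes of the deposited mRNA table, and all 36 passed the filter on low values that left 11557 genes for testing (at least 0.5 FPKM in at least 3 libraries). FPKM is the number of sequenced fragments divided by the length of the gene model and by the number of mapped fragments, so levels can be compared between genes.

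Liver RNA was measured 6 h after treatment in 3 groups of wild-type C57 BL6 mice, 8 weeks old and 20 g on average, with 3 libraries each. In the dmPGE2+APAP group, dmPGE2, an analogue of prostaglandin E2, was injected intraperitoneally at 300 μg/kg, 1 h before acetaminophen (APAP) at 500 mg/kg by the same route. The APAP group received the same acetaminophen dose without dmPGE2, and the Control group received saline. Acetaminophen is an analgesic whose overdose injures hepatocytes through a reactive metabolite. No group received dmPGE2 alone, so its effect without the overdose was not measured. The labels do not say whether each library is a separate mouse, so p-values measure only the spread between these libraries.

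Hepatocytes secrete most plasma proteins, and these fold in the ER with the help of the Hsp70 chaperone BiP, the lectins calreticulin and calnexin, and disulfide isomerases. When unfolded proteins accumulate, the sensors IRE1, ATF6 and PERK start the unfolded protein response, which slows translation and raises transcription of chaperone and degradation genes. Proteins that fail to fold are recognised by mannosidase-like lectins, moved back to the cytosol through a membrane complex around the ubiquitin ligase HRD1, and degraded by the proteasome.

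Many promoters of these genes carry the ER stress response element (ERSE), written CCAAT and CCACG separated by 9 bases, which binds ATF6 and XBP1 together with NF-Y. A related element, ERSE-II, is written ATTGG and CCACG separated by 1 base. RefSeq promoters (GRCm38.p6, 250 bases before to 50 after the start) were available for 29 of the 36 genes, and both strands were searched. ERSE was found in 10 of the 29 (34.5%), against 39 of all 32851 promoters in the table (0.119%). ERSE-II was found in 2 of the 29 (6.9%), against 12 of all promoters (0.0365%). Since these elements were defined on promoters of this family, the shares describe the list and are no test. The unfolded protein response element TGACGTGG (0.676% of all promoters) and the C/EBP-ATF core, TGATG and AAT separated by 1 base (0.965%), had no match in the 29 in either orientation. The 12 genes with ERSE or ERSE-II were Hspa5, Dnajb11, Dnajc3, Hsp90b1 (with a pair of sites), Calr, Canx, Pdia6, Ero1lb, Creld2, Syvn1, Derl3 and Herpud1.

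The sites shown are those of the 3 genes with a site that were higher in both treated groups (Hspa5, Creld2 and Herpud1) and of 3 abundant chaperones with a site that passed no test (Hsp90b1, Calr and Canx). Each sequence runs 5′ to 3′ in the direction of the gene with 12 bases on either side of the element, and capitals mark the element.
Hspa5: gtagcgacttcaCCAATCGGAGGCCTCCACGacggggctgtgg
Creld2: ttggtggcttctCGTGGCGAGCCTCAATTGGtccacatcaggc
Herpud1: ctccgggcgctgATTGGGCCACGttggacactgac
Hsp90b1: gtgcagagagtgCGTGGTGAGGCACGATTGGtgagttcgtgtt
Calr: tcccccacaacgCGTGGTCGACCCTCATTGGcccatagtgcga
Canx: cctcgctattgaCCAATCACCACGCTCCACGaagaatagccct
The Hspa5 element lies at chr2:34772025-34772043 on the plus strand, 65 to 47 bases before the start. The Creld2 element lies at chr15:88819520-88819538, 126 to 108 bases before the start of a plus-strand gene, and reads as ERSE on the other strand. The Herpud1 ERSE-II lies at chr8:94386377-94386387 on the plus strand, 52 to 42 bases before the start. The Hsp90b1 element shown is the nearer of its pair, at chr10:86705533-86705551, and that of Calr lies at chr8:84847075-84847093. Both genes are on the minus strand, and in both the element reads as ERSE on the strand opposite to the gene. The Canx element lies at chr11:50325800-50325818 and reads in the direction of its minus-strand gene.

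The mRNA FPKM of a library added up to between 371958 and 393938. Sequencing depth is not known, since the values given under the name of read counts are a score derived from FPKM. All 10 hepatocyte markers were measured, at summed levels of 49556 to 54150 FPKM in dmPGE2+APAP livers, 47811 to 55253 in APAP livers and 43442 to 46652 in controls. Alb was the largest part of each sum and averaged 28935, 28645 and 22971 FPKM in these groups. Apoa1 and Ahsg also had higher means in both treated groups than in controls. Ttr, Serpina1c, Fgb, Trf and Cyp2e1 had lower means in both, and Apoa2 and Hnf4a were lower in APAP livers alone. Secretory cells of other tissues also express these genes highly: 9 of 15 exocrine pancreas markers, among them Prss2, Cpa1 and Pnlip, were listed at 0 in all 9 libraries, and the list summed to at most 14.9 FPKM, most of it Cela1. Neutrophil markers summed to 5.62 to 11.9 FPKM in dmPGE2+APAP livers, 10.7 to 43.2 in APAP livers and 2.78 to 7.14 in controls, and their part in the results was not tested. Control replicate 3 stood apart on the second principal component of all genes tested (32.4, against -15.4 and -16.1 for the other controls), so the results for the genes called against controls are also given without it. Its stellate cell and fibroblast markers summed to 145 FPKM (102 and 98.5 in the other controls), and its cholangiocyte markers to 35.1 (19.1 and 17.4). Kupffer cell and macrophage markers summed to 98.4 FPKM in APAP replicate 3 (171 and 149 in the other APAP libraries). The part of these cells in the results was not tested. Log2 differences below are on the scale log2(scaled FPKM + 0.1). The scaling between libraries moved all differences by 0.122 for APAP over Control, 0.0318 for dmPGE2+APAP over APAP and 0.154 for dmPGE2+APAP over Control, so a difference is relative to these shifts, and means of deposited FPKM can order groups otherwise than the scaled values do.

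After the overdose, a few of the 36 genes changed and most did not pass the test. In APAP livers against controls, the BiP gene Hspa5, Creld2, Herpud1 and the PERK gene Eif2ak3 rose, by 1.52-fold to 2.48-fold, while Dnajc10, Pdia5 and Sec61b fell to between 0.632 and 0.809 of the control level. These 7 genes (19.4%) passed at a limma adjusted p under 0.05, Benjamini-Hochberg over all genes, where 20.7% of the 11557 genes tested passed. The share among the 36 was thus close to the share among all genes, in each direction (4 higher, background 11.3%; 3 lower, background 9.4%). The median log2 difference of the 36 was 0.04, against -0.02 for all genes. With no rescaling between libraries the same count was 4 higher and 7 lower. That setting lowers the differences of all genes by about 0.122, and the share of all genes under it is not given here. Without control replicate 3 the count for the 36 was 4 higher and 3 lower, where 1175 of all 11429 genes tested were higher and 1121 lower. In whole liver, fewer cells of a type and less RNA per cell cannot be told apart.

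In dmPGE2+APAP livers against controls, 5 of the 36 genes passed (13.9%, background 16.2%), and all 5 were higher: Herpud1, Creld2, Hspa5, Derl2 and Eif2ak3, by 1.40-fold to 2.87-fold (background of higher genes 9.15%). None passed as lower (background 7.03%), although 9 of the 36 had an unadjusted p under 0.05 in either direction, against 31.1% of all genes. The median log2 difference of the 36 was 0.04, against 0.01 for all genes. With no rescaling, which lowers the differences of all genes by about 0.154, 2 were higher and 3 lower. With scaling by the median of ratios 5 were higher and 2 lower. The shares of all genes under these 2 settings are not given here. Without control replicate 3 the count was 4 higher and 1 lower, where 949 of all 11429 genes tested were higher and 786 lower. This comparison and the previous one use the same 3 control libraries.

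Between dmPGE2+APAP and APAP livers, which asks whether dmPGE2 altered the response to the overdose, none of the 36 genes passed with limma, nor did any of the 11557 genes (0% called). At an unadjusted p under 0.05 there were 2 of the 36 (Derl2 and Herpud1), against 1082 of all genes (9.36%). With the libraries of these 2 groups alone, limma called 2 of all genes and none of the 36. The lowest adjusted p among the 36 was 0.324, and log2 differences ran between -0.53 and 0.65, with a median of 0.04 against 0.03 for all genes.

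**Figure D1:**
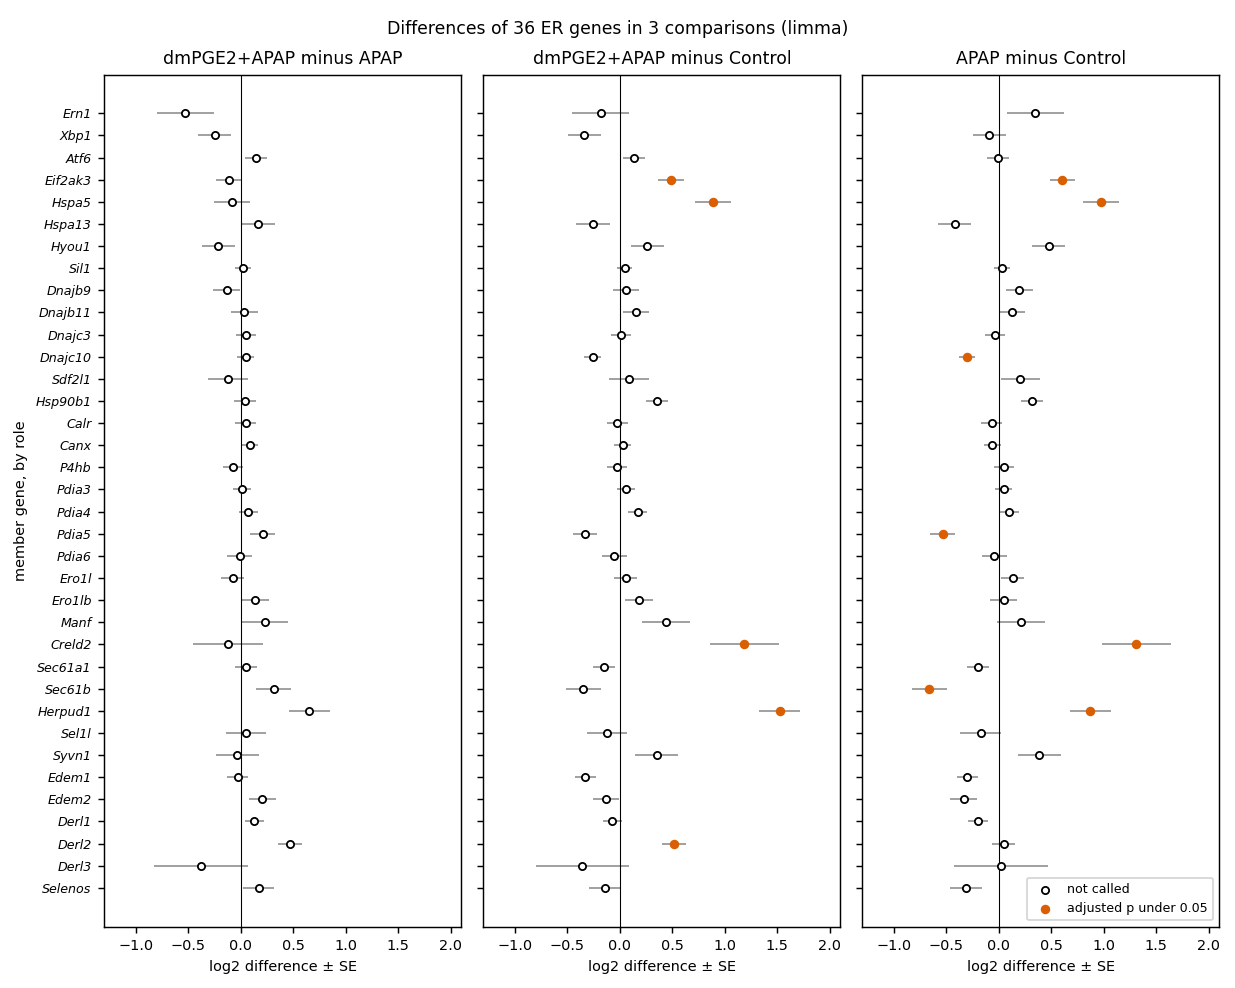
Log2 differences of the 36 genes, ordered by role, in 3 comparisons: dmPGE2+APAP minus APAP, dmPGE2+APAP minus Control, and APAP minus Control. Points are limma estimates with standard errors as lines, and filled points passed at an adjusted p under 0.05: 0 in the left panel, 5 in the middle and 7 in the right. Most points lie close to 0 in each panel, and Creld2, Hspa5, Herpud1 and Eif2ak3 lie right of 0 in both comparisons with controls.

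Counted by overlap of scaled values instead of by test, all 3 APAP libraries lay above all 3 controls for 6 of the 36 genes (background 19.3%) and below for 6 (background 19.5%). Besides the called genes these were Hyou1 and Hsp90b1 above, and Hspa13, Edem1 and Derl1 below. All dmPGE2+APAP libraries lay above all controls for 7 genes (background 20.4%) and below for 3 (background 17.7%). Between the treated groups, dmPGE2+APAP lay above APAP for 5 genes (Atf6, Canx, Sec61b, Edem2 and Derl2, background 9.58%) and below for 3 (Xbp1, Hyou1 and Dnajb9, background 7.11%). For 1 gene and 3 libraries against 3, the smallest p of an exact two-sided permutation test is 0.1, and the calls therefore depend on the variance estimate that limma shares between genes.

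**Figure D2:**
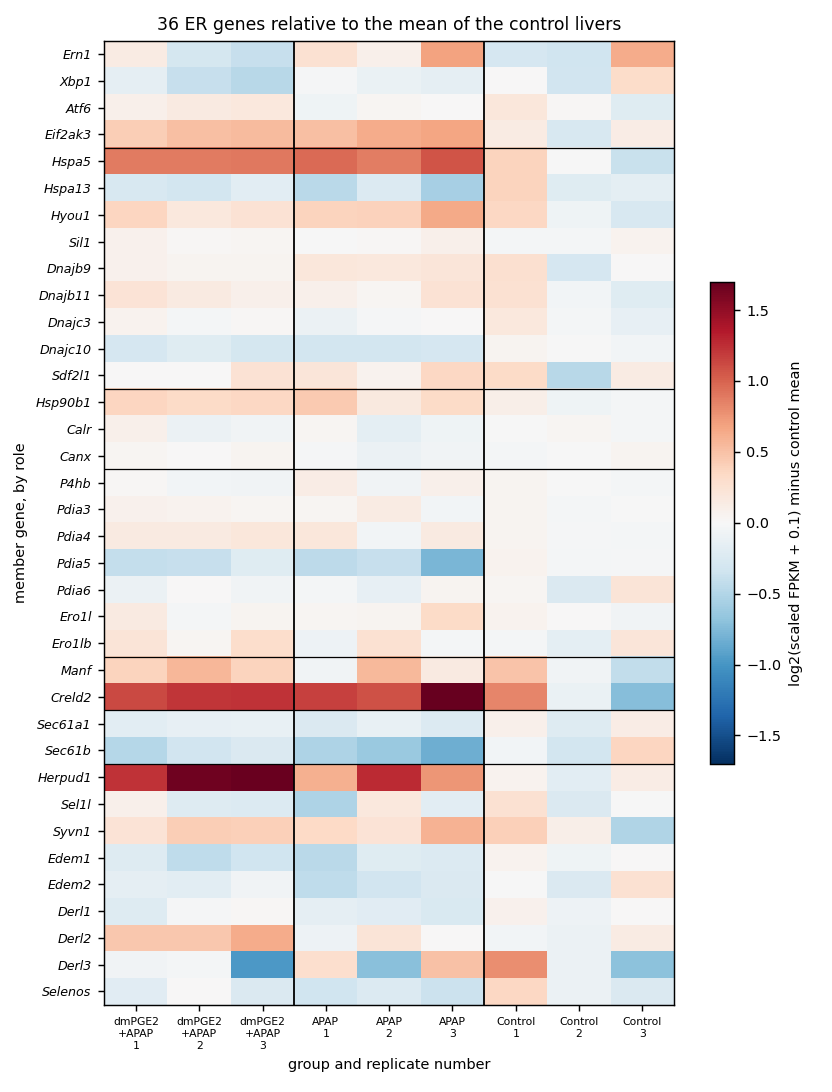
Scaled log2 values of the 36 genes (rows, by role) in the 9 libraries (columns: dmPGE2+APAP, APAP, Control), each relative to the mean of the 3 controls. Red is above and blue below the control mean. Creld2, Herpud1 and Hspa5 are red in all 6 treated libraries, Pdia5, Sec61b and Dnajc10 are blue in them, and the 3 control columns differ among themselves for Creld2, Hspa5, Derl3 and Ern1.

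In dmPGE2+APAP livers Herpud1 had the highest mean of the 36 (363 ± 66.6 FPKM, mean ± SD, n = 3 here and throughout) and Hspa5 the next (338 ± 9.01), but these neighbours did not differ beyond their spread. In APAP livers the order was Hspa5 (367 ± 36.8), P4hb (333 ± 29.5), Herpud1 (237 ± 54.1), Calr (233 ± 20.1) and Hsp90b1 (231 ± 26.2), where neither Hspa5 and P4hb nor the last 3 differed beyond their spread. In controls it was P4hb (349 ± 8.39), Calr (266 ± 5.01), Hspa5 (207 ± 49.4), Hsp90b1 (202 ± 12.7) and Herpud1 (140 ± 19), where Hspa5 and Hsp90b1 did not differ beyond their spread. The lowest level in every group was that of Derl3, a derlin known from secretory cells, with 1.00, 1.08 and 0.493 FPKM in dmPGE2+APAP livers, 1.35, 0.615 and 1.64 in APAP livers, and 2.11, 1.08 and 0.726 in controls. Plasma cell and B cell markers without Derl3 summed to 1.12 to 2.04, 1.09 to 1.25 and 1.25 to 2.40 FPKM in the same 3 groups. The groups overlapped for Derl3, which had the largest relative spread of the 36 within each group.

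Of all FPKM in the mRNA table, the 36 genes together made up 0.620% to 0.651% in dmPGE2+APAP livers, 0.615% to 0.683% in APAP livers and 0.555% to 0.630% in controls. Their sum was 2490 ± 78.6 FPKM in dmPGE2+APAP livers, 2432 ± 99.5 in APAP livers and 2279 ± 154 in controls. The median coefficient of variation of the 36 was 5.44% among dmPGE2+APAP libraries, 9.49% among APAP libraries and 15.6% among controls, where the medians over all genes tested were 10.04%, 11.7% and 12.6%. The controls were thus more spread for these genes than for all genes, and the dmPGE2+APAP and APAP libraries less. The 36 were not compared with genes of similar level, so this need not be particular to them. Among controls, replicate 1 had the highest FPKM for 18 genes and replicate 3 for the other 18. Replicate 1 was highest for Hspa5, Creld2, Hyou1, Manf and Syvn1, and replicate 3 for Xbp1, Ern1, Herpud1 and Sec61b.

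**Figure D3:**
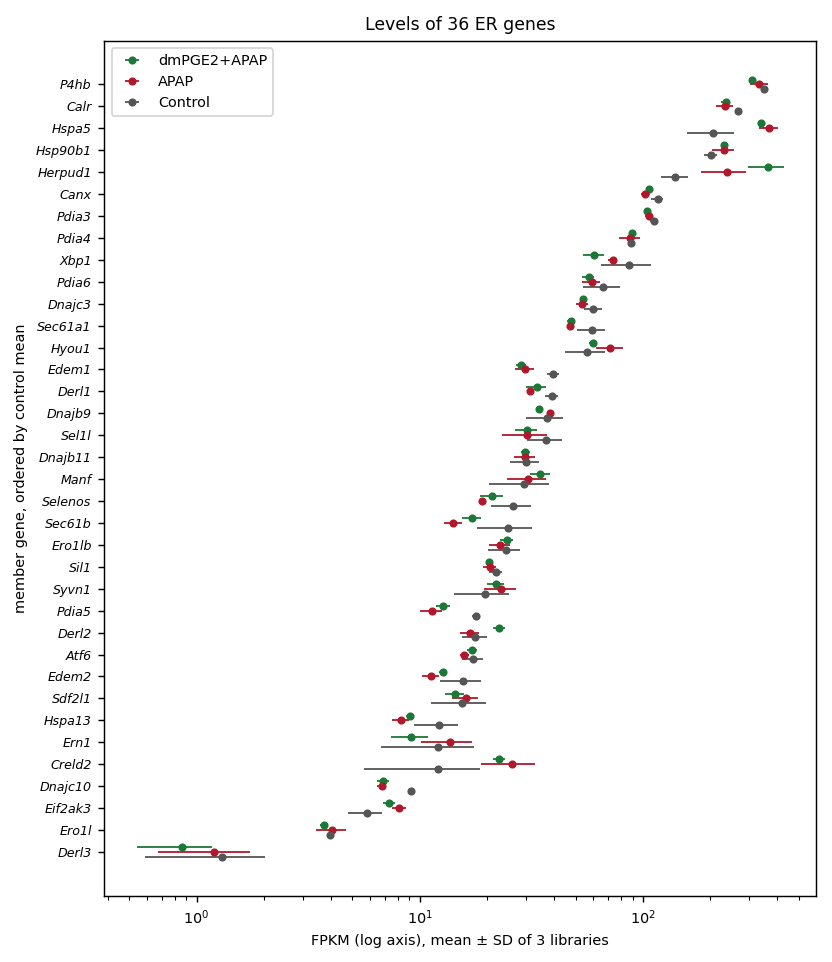
FPKM of the 36 genes on a log axis, mean ± SD of 3 libraries, for dmPGE2+APAP, APAP and Control livers, ordered from the highest control mean (P4hb) at the top to the lowest (Derl3). The 3 groups lie close together for most genes, apart from Hspa5, Herpud1 and Creld2, whose controls lie left of both treated groups.

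Of the 4 sensor and transcription factor genes, only Eif2ak3 passed a test, and it rose in both treated groups. Eif2ak3 encodes PERK, the kinase that phosphorylates eIF2α and slows translation. It stood at 6.76, 7.63 and 7.44 FPKM in dmPGE2+APAP livers, 7.56, 7.96 and 8.71 in APAP livers and 6.19, 4.65 and 6.54 in controls. Every treated library exceeded every control. The rise was 1.52-fold in APAP livers (log2 0.61, SE 0.12, limma adjusted p = 0.00899), and none of 17 alternative settings ended that call. It was 1.40-fold in dmPGE2+APAP livers (log2 0.49, adjusted p = 0.0266). The second call was lost in 6 of 17 settings, among them leaving out any 1 dmPGE2+APAP library (adjusted p = 0.0502 to 0.0843) or control replicate 2 (0.0597). Without control replicate 3 both calls were kept (log2 0.53 in dmPGE2+APAP livers and 0.65 in APAP livers). An exon of the antisense gene Gm43292 overlaps Eif2ak3, and whether the quantification used the strand is not recorded.

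The other 3 sensor genes gave no call in any comparison. Ern1 encodes IRE1, the kinase and ribonuclease that splices Xbp1 mRNA. It stood at 11.1, 8.61 and 7.74 FPKM in dmPGE2+APAP livers, 12.6, 10.8 and 17.6 in APAP livers and 9.19, 8.83 and 18.4 in controls. Control replicate 3 was thus at about the level of the highest APAP library, and the groups overlapped. The log2 difference of APAP from Control was 0.35 (adjusted p = 0.396) and became 0.63 without control replicate 3 (0.0593). That of dmPGE2+APAP from APAP was -0.53 (0.584).

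Xbp1 encodes a transcription factor whose active form needs the splicing step, which gene-level FPKM cannot show. It stood at 67.1, 59.8 and 54.4 FPKM in dmPGE2+APAP livers, 76.9, 70.1 and 72.4 in APAP livers and 83.7, 66.2 and 110 in controls. All dmPGE2+APAP libraries were below all APAP libraries, with a log2 difference of -0.25 that did not pass (adjusted p = 0.653). The log2 difference of dmPGE2+APAP from Control was -0.34 (0.181), and that of APAP from Control, -0.09 (0.722), changed sign without control replicate 3 (0.04). Atf6 encodes a membrane-bound factor that is cleaved in the Golgi during stress. It stood at 16.1, 17.8 and 17.4 FPKM in dmPGE2+APAP livers, 15.1, 15.9 and 16.6 in APAP livers and 19.3, 17.2 and 15.5 in controls. The groups overlapped in FPKM, and adjusted p-values ran between 0.428 and 0.974.

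Within the Hsp70 and Hsp40 system (9 genes), Hspa5 rose in both treated groups and Dnajc10 fell in APAP livers. Hspa5 encodes BiP, the main Hsp70 of the ER, which also holds the sensors inactive. It stood at 330, 348 and 336 FPKM in dmPGE2+APAP livers, 364, 332 and 406 in APAP livers and 261, 198 and 163 in controls. The 6 treated libraries lay above the 3 controls, and the treated groups overlapped. Hspa5 rose 1.96-fold in APAP livers (log2 0.97, SE 0.17, limma adjusted p = 0.00523) and 1.85-fold in dmPGE2+APAP livers (log2 0.89, SE 0.17, adjusted p = 0.00975). Neither call was lost under 17 alternative settings. Without control replicate 3, the lowest control for this gene, the log2 differences were 0.76 and 0.67. The log2 difference of dmPGE2+APAP from APAP was -0.08 (adjusted p = 0.901).

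Dnajc10 encodes ERdj5, a disulfide reductase with an Hsp40 domain that unlocks misfolded proteins for degradation. It stood at 6.60, 7.32 and 6.60 FPKM in dmPGE2+APAP livers, 6.69, 6.52 and 7.11 in APAP livers and 9.29, 8.94 and 9.14 in controls. Both treated groups lay below the controls without overlap. It fell to 0.809 of the control level in APAP livers (log2 -0.30, SE 0.08, limma adjusted p = 0.0242). This call was lost in 6 of 17 settings, among them without APAP replicate 1 (0.0674) or 2 (0.0565) and without control replicate 1 (0.0752) or 2 (0.0669). Summing the mRNA and lncRNA tables also ended it (log2 -0.23, limma adjusted p = 0.0996). Dnajc10 transcripts in the lncRNA table made up 10.9% to 14.6% of the gene's summed FPKM in APAP livers. Their share was 9.97% to 12.4% in dmPGE2+APAP livers and 6.26% to 9.61% in controls. The part of this difference in the fall was not tested. In dmPGE2+APAP livers the ratio of Dnajc10 to controls was 0.835 (adjusted p = 0.0516), which passed under 6 of the settings, for example without control replicate 3 (0.0429), where the APAP call was kept (log2 -0.36, adjusted p = 0.0227).

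The other 7 genes of this group did not pass. Hyou1, which encodes a large Hsp70-like protein that exchanges the nucleotide of BiP, averaged 59.9 ± 2.5 FPKM in dmPGE2+APAP livers, 71.5 ± 9.87 in APAP livers and 56.3 ± 11.6 in controls (APAP over Control log2 0.48, limma adjusted p = 0.0604). Hspa13, an Hsp70-like ATPase of microsomes, averaged 9.04 ± 0.376 FPKM in dmPGE2+APAP livers, 8.24 ± 0.732 in APAP livers and 12.2 ± 2.73 in controls (APAP over Control log2 -0.42, adjusted p = 0.0924). Sil1, another exchange factor of BiP, the Hsp40 co-chaperones Dnajb9, Dnajb11 and Dnajc3, and Sdf2l1, a partner of Dnajb11, had log2 differences within 0.21 of 0 in all 3 comparisons. Dnajc3 had the smallest relative spread of the 36 genes among dmPGE2+APAP livers, at 54.7, 54.1 and 53.8 FPKM, against 51.2, 52.4 and 57.2 in APAP livers and 66.2, 57.3 and 56.3 in controls.

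None of the 3 genes for the ER Hsp90 and the lectin chaperones passed. Hsp90b1, which encodes GRP94, came closest, at 228, 234 and 229 FPKM in dmPGE2+APAP livers, 252, 202 and 239 in APAP livers and 212, 188 and 205 in controls. The dmPGE2+APAP libraries all exceeded the controls in FPKM, while APAP replicate 2 fell among them. The ratios were 1.27 for dmPGE2+APAP over Control (limma adjusted p = 0.0505) and 1.24 for APAP over Control (0.0629). Exons of Gm15344, Gm25745 and 1810014B01Rik overlap this gene. Calr, the calcium-binding lectin calreticulin, stood at 248.5, 230 and 227 FPKM in dmPGE2+APAP livers, 250, 211 and 239 in APAP livers and 261, 266 and 271 in controls. The controls were the highest in deposited FPKM, but on scaled values the groups overlapped, and the log2 differences from Control were -0.02 and -0.07 for dmPGE2+APAP and APAP (adjusted p = 0.894 and 0.657). Canx, its membrane-bound relative calnexin, averaged 106 ± 1.79 FPKM in dmPGE2+APAP livers, 103 ± 4.71 in APAP livers and 116 ± 7.21 in controls. Of these abundant chaperone genes with an ERSE in the promoter, Hspa5 was thus called and Hsp90b1, Calr and Canx were not. Hsp90b1 missed the threshold narrowly, and on scaled values all its treated libraries lay above the controls. Calr and Canx overlapped with the controls.

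Of the 7 disulfide isomerases and oxidases, Pdia5 fell in APAP livers and the other 6 passed no test. Pdia5 encodes a protein disulfide isomerase that has also been linked to the activation of ATF6. It stood at 11.9, 12.6 and 13.8 FPKM in dmPGE2+APAP livers, 11.97, 12.1 and 9.87 in APAP livers and 18.2, 17.1 and 18.2 in controls. Every treated library was below every control. The level in APAP livers was 0.689 of that in controls (log2 -0.54, SE 0.12, limma adjusted p = 0.0121), a call that none of 17 settings ended. In dmPGE2+APAP livers the ratio was 0.795 (adjusted p = 0.0857, and 0.0322 without APAP replicate 3, the lowest library). Without control replicate 3 the log2 differences from Control were -0.37 for dmPGE2+APAP and -0.57 for APAP.

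P4hb, the classical protein disulfide isomerase, averaged 308 ± 7.92 FPKM in dmPGE2+APAP livers, 333 ± 29.5 in APAP livers and 349 ± 8.39 in controls (log2 differences from Control of -0.03 and 0.05). Pdia3, which works with calreticulin and calnexin, averaged 105 ± 3.1, 106 ± 3.57 and 112 ± 4.61 FPKM in the same 3 groups. Pdia4 averaged 89.4 ± 2.33, 87.5 ± 9.71 and 88.5 ± 2.5 FPKM, and Pdia6 57.1 ± 3.6, 58.9 ± 5.57 and 66.6 ± 12.5. The oxidase genes Ero1l and Ero1lb, whose products pass electrons from the isomerases to oxygen, had log2 differences between -0.08 and 0.18. Across the 7 genes, the median log2 difference was 0.05 in both comparisons with controls.

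Creld2 rose in both treated groups, and Manf, the other secreted stress protein, did not pass. Creld2 encodes a secreted disulfide isomerase-like protein released under ER stress. It stood at 21.2, 23.8 and 23.1 FPKM in dmPGE2+APAP livers, 22.7, 20.9 and 34.0 in APAP livers and 19.3, 10 and 6.93 in controls. The treated libraries all exceeded the controls, but the controls differed 2.79-fold among themselves. The rise was 2.48-fold in APAP livers (log2 1.31, SE 0.33, limma adjusted p = 0.0234) and 2.28-fold in dmPGE2+APAP livers (log2 1.19, SE 0.33, adjusted p = 0.0408). The first call was lost in 4 of 17 settings: without APAP replicate 1 (0.0520), APAP replicate 3 (0.0934) or control replicate 2 (0.0679), and from the 2 groups alone (0.0581). Without control replicate 3 it was kept (log2 0.92, adjusted p = 0.0454). The second call was lost in 11 of 17 settings, among them without control replicate 3 (log2 0.80, adjusted p = 0.0841). Manf, a secreted factor that binds BiP, stood at 32.5, 38.8 and 32.9 FPKM in dmPGE2+APAP livers, 24.9, 37.0 and 30.03 in APAP livers and 39.0, 26.6 and 21.98 in controls (adjusted p = 0.222 to 0.778).

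The 2 genes among the 36 for subunits of the Sec61 channel, through which new proteins enter the ER, had negative log2 differences from controls in both treated groups, and the fall of Sec61b in APAP livers passed. Sec61b, the beta subunit, stood at 15.3, 18.02 and 18.3 FPKM in dmPGE2+APAP livers, 15.5, 14.0 and 12.9 in APAP livers and 23.1, 19.2 and 32.5 in controls. The treated libraries all lay below the controls in FPKM, although dmPGE2+APAP and controls overlapped on scaled values, and control replicate 3 was the highest. The ratio in APAP livers was 0.632 (log2 -0.66, SE 0.17, limma adjusted p = 0.0228). The call was lost without APAP replicate 2 (0.0504), APAP replicate 3 (0.0710) or control replicate 1 (0.0508) and from the 2 groups alone (0.0525), and kept without control replicate 3 (log2 -0.51, adjusted p = 0.0316). In dmPGE2+APAP livers the ratio was 0.785 (adjusted p = 0.190). Sec61a1, the pore-forming subunit, averaged 47.7 ± 2 FPKM in dmPGE2+APAP livers, 47.1 ± 1.5 in APAP livers and 59.3 ± 8.64 in controls (adjusted p = 0.368 and 0.200 against controls).

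Among the 9 genes of ER-associated degradation, Herpud1 rose in both treated groups and Derl2 in dmPGE2+APAP livers. Herpud1 encodes a membrane protein with a ubiquitin-like domain that assembles the HRD1 complex. It stood at 286, 404 and 398 FPKM in dmPGE2+APAP livers, 193, 298 and 221 in APAP livers and 142, 120 and 158 in controls. All treated libraries exceeded all controls, and dmPGE2+APAP replicate 1 fell just below APAP replicate 2. The rise was 2.87-fold in dmPGE2+APAP livers (log2 1.52, SE 0.20, limma adjusted p = 0.00137), and none of 17 settings ended that call. In APAP livers the rise was 1.83-fold (log2 0.87, SE 0.20, adjusted p = 0.0142), which was lost without control replicate 2 (0.0515). Without control replicate 3 the log2 differences were 1.56 for dmPGE2+APAP and 0.91 for APAP, both called. The level in dmPGE2+APAP livers was 1.57-fold that in APAP livers, the largest log2 difference of the 36 in this comparison (0.65), with an unadjusted p of 0.00859 and an adjusted p of 0.387.

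Derl2 encodes derlin-2, a membrane protein of the complex that moves substrates back to the cytosol. It stood at 21.3, 22.5 and 24.3 FPKM in dmPGE2+APAP livers, 15.2, 18.4 and 16.8 in APAP livers and 16.8, 16.1 and 20.2 in controls. All dmPGE2+APAP libraries lay above the other 6, and APAP and Control overlapped. Derl2 rose 1.43-fold in dmPGE2+APAP livers against controls (log2 0.52, SE 0.11, limma adjusted p = 0.0150). That call was lost without control replicate 2 (0.0547), without dmPGE2+APAP replicate 3 (0.0593) and with no rescaling (log2 0.36, adjusted p = 0.0514), and kept without control replicate 3 (log2 0.56, adjusted p = 0.0148). Against APAP livers the ratio was 1.38 (log2 0.47, unadjusted p = 0.00219), and its adjusted p of 0.324 was the lowest of the 36. The APAP over Control log2 difference was 0.05 (adjusted p = 0.799). Exons of Mis12 on the opposite strand overlap Derl2, and reads of the pair could not be told apart if strand was not used.

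The other 7 degradation genes did not pass. Edem1, one of the mannosidase-like lectins that mark misfolded glycoproteins, averaged 28.4 ± 1.41 FPKM in dmPGE2+APAP livers, 29.7 ± 2.93 in APAP livers and 39.7 ± 2.47 in controls. Its ratios to controls were 0.796 (limma adjusted p = 0.0542) and 0.812 (0.0630) for dmPGE2+APAP and APAP, without overlap. Edem2 averaged 12.7 ± 0.507, 11.2 ± 0.942 and 15.6 ± 3.26 FPKM in the same 3 groups. Syvn1, the ubiquitin ligase HRD1, averaged 22 ± 1.91, 23.2 ± 3.82 and 19.6 ± 5.44 FPKM, and Sel1l, its adaptor, 30.2 ± 3.5, 30.2 ± 6.85 and 36.9 ± 6.47. Derl1 averaged 33.4 ± 3.36, 31.2 ± 0.873 and 39 ± 2.59 FPKM, and Selenos, a selenoprotein that recruits the p97 ATPase, 21.2 ± 2.47, 19.1 ± 0.486 and 26.2 ± 5.36. The median log2 difference of the 9 genes was -0.12 for dmPGE2+APAP and -0.17 for APAP against controls, with 3 and 4 of the 9 above 0.

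**Figure D4:**
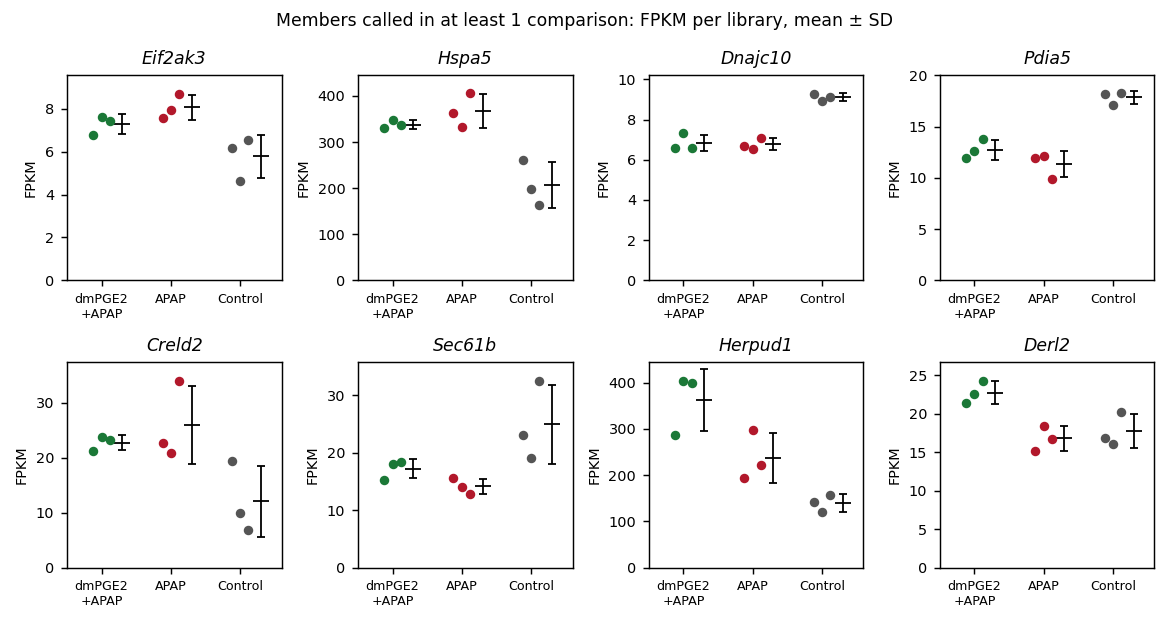
FPKM per library (points) and mean ± SD (lines with whiskers) of the 8 genes that passed in at least 1 comparison, for dmPGE2+APAP, APAP and Control livers. Eif2ak3, Hspa5, Creld2 and Herpud1 lie above the controls in both treated groups, Dnajc10, Pdia5 and Sec61b lie below them, and Derl2 lies above both other groups in dmPGE2+APAP livers alone.

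Of the 12 genes with an ERSE or ERSE-II, 3 were called higher and 0 lower in each comparison with controls, with median log2 differences of 0.17 for dmPGE2+APAP and 0.08 for APAP. Of all genes tested, 9.15% were higher and 7.03% lower in dmPGE2+APAP livers (median 0.01), and 11.3% were higher and 9.4% lower in APAP livers (median -0.02). Of the 17 genes whose promoter held neither, 2 were higher and 0 lower in dmPGE2+APAP livers (median -0.12), and 1 was higher and 3 lower in APAP livers (median 0.04). The ranges of log2 differences in APAP livers overlapped, from -0.07 to 1.31 with an element and from -0.66 to 0.61 without. These are counts over few genes and were not tested.

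Beyond the 36, 6 lists of related genes were examined, in which 115 genes were listed and 109 tested. In APAP livers against controls 8 of the 109 were higher and 9 lower (15.6% called, background 20.7%), and in dmPGE2+APAP livers 8 were higher and 7 lower (13.8%, background 16.2%). None passed between dmPGE2+APAP and APAP livers with limma, where 9 had an unadjusted p under 0.05. With no rescaling, 28 genes were lower in APAP livers and 18 in dmPGE2+APAP livers. That setting lowers the differences of all genes by about 0.122 and 0.154 in these comparisons. The share of all genes called lower under it is not given here, so these counts are no result about the lists. The rises came mainly from 1 list, drawn up as outputs of PERK and ATF4. Whether PERK or another signal raised these genes was not tested. Of its 13 genes 10 were tested. In APAP livers 6 of these were higher and none lower (median log2 difference 1.25). Of all genes, 11.3% were higher and 9.4% lower there (median -0.02). In dmPGE2+APAP livers 7 were higher and 1 lower (median 1.28), where 9.15% of all genes were higher and 7.03% lower (median 0.01). Ddit3, which encodes the stress factor CHOP, stood at 11.2, 8.12 and 12.4 FPKM in dmPGE2+APAP livers, 8.58, 7.10 and 7.56 in APAP livers and 1.30, 1.43 and 1.41 in controls. Atf4 stood at 68.6, 72.2 and 72.6 FPKM in dmPGE2+APAP livers, 74.1, 67.8 and 70.0 in APAP livers and 34.2, 34.2 and 37.3 in controls. Both rose in both treated groups, and their treated libraries did not overlap the controls. Both rises were also called without control replicate 3, where the list again had 6 genes higher in APAP livers and 7 in dmPGE2+APAP livers. In that setting Ppp1r15b was called lower in dmPGE2+APAP livers (ratio 0.784, limma adjusted p = 0.0273). Asns was called in neither treated group (ratios of 0.725 in dmPGE2+APAP livers and 1.28 in APAP livers).

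Of 21 genes for translocation and signal peptide cleavage, 5 fell and none rose in APAP livers (median log2 difference -0.27), where 9.4% of all genes were lower and 11.3% higher (median -0.02). Without control replicate 3, 8 of the 21 were lower (median -0.34, against -0.05 for all genes), where 1121 of all 11429 genes tested were lower. The largest fall in that setting was that of Srp14. Its ratios to controls in that setting were 0.228 in APAP livers and 0.244 in dmPGE2+APAP livers (limma adjusted p = 0.00698 and 0.0106). With all libraries in the fit, Srp14 was not called in dmPGE2+APAP livers, so its call there depends on leaving out this control. Spcs3, a signal peptidase subunit, averaged 13.6 ± 0.442 FPKM in dmPGE2+APAP livers, 13.1 ± 1.17 in APAP livers and 21.7 ± 3.84 in controls, and was called lower in both treated groups (ratios of 0.706 and 0.667). Ssr1, a subunit of the translocon-associated complex, averaged 8.93 ± 0.171 FPKM in dmPGE2+APAP livers, 8.63 ± 0.105 in APAP livers and 13.3 ± 2.41 in controls (ratios of 0.756 and 0.715, both called). In dmPGE2+APAP livers these were the 2 genes of the list called (background 7.03% lower). Control replicate 3 was the highest library for both genes, at 25.8 FPKM for Spcs3 and 15.9 FPKM for Ssr1. Without it, the Spcs3 ratios were 0.745 in dmPGE2+APAP livers and 0.705 in APAP livers, both called, while Ssr1 kept its call in APAP livers (0.756) and lost it in dmPGE2+APAP livers (0.798, limma adjusted p = 0.0601).

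The other lists held few calls in APAP livers. Of 17 N-glycosylation genes, Lman1, a lectin that carries glycoproteins out of the ER, fell to 52.4 ± 1.28 FPKM, against 73.1 ± 6.81 in controls. Of 20 further disulfide and proline folding enzymes, the prolyl isomerase gene Fkbp14 rose to 2.72 ± 0.285 FPKM, against 2.08 ± 0.285 in controls, a call that was lost without control replicate 3 (limma adjusted p = 0.0926). Of 24 further degradation genes, Ufd1, a cofactor of p97, rose 1.44-fold, and 2 fell, of which Erlin2, a scaffold of ER membranes, stood at 5.05 ± 0.497 FPKM, against 7.78 ± 0.966 in controls. Of 17 further sensors and regulators, Nfyb, a subunit of the NF-Y factor that binds ERSE, fell to 6.68 ± 0.643 FPKM, against 12.2 ± 2.98 in controls. The calls of Lman1, Ufd1, Erlin2 and Nfyb were kept without control replicate 3. Their scaled ratios of APAP livers to controls were then 0.791, 1.34, 0.735 and 0.667. None of these 4 lists had more than 3 calls in either comparison with controls. In APAP livers 5% to 12.5% of the tested genes of a list were called, against 20.7% of all genes. In dmPGE2+APAP livers it was 0% to 12.5%, against 16.2% of all genes.

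The deposited lncRNA table lists 85 further transcripts of 32 of the 36 genes, 54 of them retained introns and 29 processed transcripts, and 72 of them, from 28 genes, passed its filter (at least 0.1 FPKM in at least 3 libraries). Their exons overlap those of the mRNAs, so the quantification may have split reads between both. In APAP livers against controls 2 of the 72 were higher and 0 lower (background 3.59% called, 2.62% higher and 0.962% lower, of 22984 transcripts), and both were transcripts of Hspa5. Hspa5-206 (chromosome 2, from 34773666 to 34774333) stood at 16.5, 16.5 and 14.8 FPKM in dmPGE2+APAP livers, 20.5, 17.7 and 21.9 in APAP livers and 11.5, 8.35 and 8.16 in controls. It rose 2.07-fold in APAP livers (limma adjusted p = 0.0402). Hspa5-205 (from 34772581 to 34774192) stood at 3.10, 1.52 and 1.08 FPKM in dmPGE2+APAP livers, 2.95, 0.803 and 3.26 in APAP livers and 0.286, 0.253 and 0.348 in controls, a rise of 5.15-fold in APAP livers (adjusted p = 0.0359). Both sets of treated libraries lay above the controls, in the direction of the Hspa5 mRNA. Leaving out any single library ended the Hspa5-206 call (adjusted p = 0.0517 to 0.113), and 6 of the 9 omissions ended that of Hspa5-205 (0.0533 to 0.122).

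Manf-207 was the 1 transcript called in dmPGE2+APAP livers against controls (1.78% of all transcripts called; 0 higher, background 1.25%; 1 lower, background 0.535%), at 0.242, 0.215 and 0.121 FPKM in dmPGE2+APAP livers, 0.289, 0.200 and 0.306 in APAP livers and 0.543, 0.608 and 0.945 in controls (limma adjusted p = 0.0457, and 0.0635 to 0.132 with any single library left out). Between dmPGE2+APAP and APAP livers none of the 72, and none of the 22984, passed with limma (0%), and 2 and 1482 had an unadjusted p under 0.05. A few transcripts were high in 1 or 2 libraries alone: Manf-205 stood at 15.9 FPKM in APAP replicate 2 and between 0.218 and 3.24 in the other 8, and Ero1lb-204 at 5.16 in APAP replicate 3, 6.27 in control replicate 1 and at most 0.103 elsewhere.

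**Figure D5:**
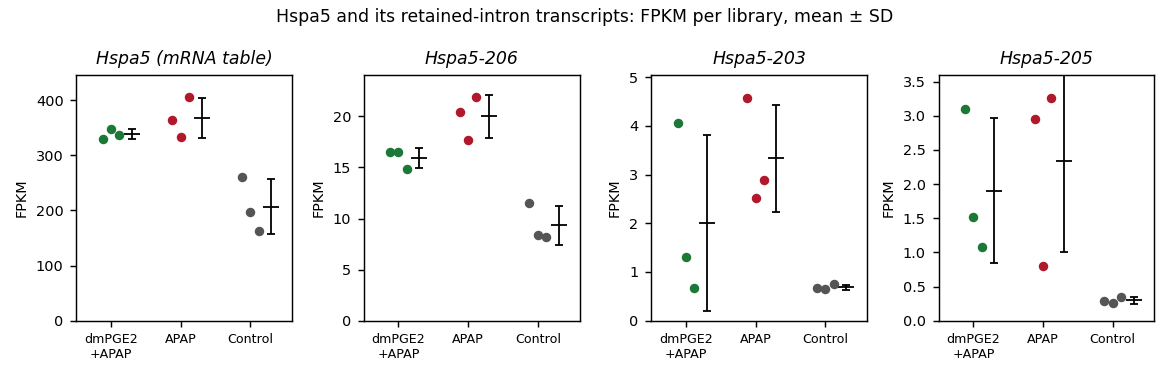
FPKM per library (points) and mean ± SD (lines with whiskers) of Hspa5 in the mRNA table and of its 3 retained-intron transcripts in the lncRNA table, for dmPGE2+APAP, APAP and Control livers. All 4 have their lowest group mean in controls; Hspa5-203 did not pass (APAP over Control adjusted p = 0.0705), and its dmPGE2+APAP replicate 3 lies among the controls.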

How the data were processed

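Per the labels' protocols, total liver RNA was depleted of ribosomal RNA and sequenced from libraries whose second strand was marked with dUTP. The submitters' processing notes name HISAT2 and GRCm38 (mm10), while the quantifier, the annotation release and the use of strand are not given in the sources used here. The authors deposited FPKM per gene for mRNA and per transcript for lncRNA, per the file headers. The deposited tables named for read counts contain a score that equals FPKM times genomic span times a constant (60.04 to 78.55) in every library, within 1% for scores of at least 1000, so no count test was used. No label explains the name of the control columns, which were taken as controls because the remaining columns name both treated groups.

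FPKM were divided by a scale factor per library (unweighted trimmed mean of log ratios, 30% by ratio, 5% by abundance), 0.1 was added, and log2 values of all 9 libraries were fitted in limma 3.58.1 (R 4.3.3), with the prior variance following abundance. Tests were two-sided on 6 residual degrees of freedom, adjusted by Benjamini-Hochberg over all features, and called under 0.05. The added 0.1 makes folds of low genes too small. The fit was also run on simulated data with fewer changed genes and larger differences than most here, which does not measure how reliable the calls of small differences are. Of the 36 genes, 33 have the same coordinates as in GENCODE release M21, and 11 share exons with another gene. The members, the further lists and the genes given in full (those called, with Hspa5, Xbp1, Atf6, Ern1, Eif2ak3 and Calr) were chosen with earlier results of these data known, and from each further list at most 2 called genes with the smallest adjusted p in APAP against controls were named. Besides these, Ppp1r15b, Asns and Srp14 were named for their values without control replicate 3. Promoters were matched by symbol for 27 genes and by synonym for 2. Alternatives changed scaling, pseudocount, filter, libraries in the fit and the summing of both tables. miRNA and circular RNA were not analysed here.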

Additional observations from a re-analysis of the deposited data

How the results depend on the processing

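Of 17 alternative settings, none ended the calls of Hspa5, Eif2ak3 and Pdia5 in APAP livers or of Hspa5 and Herpud1 in dmPGE2+APAP livers, all against controls. The counts that follow stand without the share of all genes under each setting, and no rescaling lowers the differences of all genes from controls. For APAP against controls, the number of the 36 genes called lower was 3, with 1 from the 2 groups alone and 7 with no rescaling; single libraries left out gave 2 to 5 higher and 1 to 3 lower. For dmPGE2+APAP against controls, 5 were higher, with 3 from the 2 groups alone and 2 with no rescaling, and 0 were lower, with 1 under a filter of 1 FPKM, 1 with no filter, 2 under the median of ratios and 3 with no rescaling; single libraries left out gave 2 to 5 higher and 0 to 2 lower. In the further lists, 9 genes were lower in APAP livers (4 from the 2 groups alone, 28 with no rescaling, 4 to 14 with single libraries left out) and 7 in dmPGE2+APAP livers (4, 18, and 0 to 8), and leaving out single libraries gave 0 to 1 lower between dmPGE2+APAP and APAP. Among lncRNA-table transcripts, a filter of 0.5 FPKM gave 4 higher in APAP livers and 1 higher in dmPGE2+APAP livers; no rescaling and a pseudocount of 0.01 each gave 0 lower in dmPGE2+APAP livers; single libraries left out gave 0 to 2 higher in APAP livers and, in dmPGE2+APAP livers, 0 to 1 higher and 0 lower. Signs that changed belong to log2 differences that passed no test. For APAP over Control, Atf6 became 0.00726 under the median of ratios and 0.0122 with both tables summed, Xbp1 became 0.00859 with both tables summed, and Derl2 became -0.0747 with no rescaling. For dmPGE2+APAP over Control, Atf6 became -0.0168 with no rescaling. Leaving out single libraries gave ranges of -0.137 to 0.0869 for Atf6, -0.254 to 0.0418 for Xbp1 and -0.0426 to 0.115 for Derl2 in APAP over Control; -0.0796 to 0.0122 for Calr and -0.351 to 0.104 for Ern1 in dmPGE2+APAP over Control; and -0.0103 to 0.0986 for Calr, -0.237 to 0.0653 for Creld2 and -0.664 to 0.195 for Hspa5-205 in dmPGE2+APAP over APAP. The cause of these changes was not tested.

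A replicate block was fitted over the 6 treated libraries, since the control columns carry no label. It called 0 of the 36 genes, as without the block, and 0 of all genes (1081 at an unadjusted p under 0.05, against 1082). Same-numbered libraries of the 2 groups did not deviate together (r = 0.0226, 0.0230 and -0.117), so the numbers were not read as pairs. The depth behind a value is unknown, so no counting interval is given; low values such as those of Derl3 and the lncRNA-table transcripts are the least certain.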
